A study of Homo sapiens with 4 samples.

Results

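The nuclear-encoded subunits of the respiratory chain and of ATP synthase were examined by polysome profiling in MDA-MB-231 cells, a human basal-like breast cancer line. Members were taken by gene name among rows of class mRNA. The names began with NDUFA, NDUFB, NDUFC, NDUFS or NDUFV for complex I, SDHA to SDHD for complex II, UQCR for complex III, COX4 to COX8 for complex IV and ATP5 for complex V, and NDUFAB1 was included. The rule gave 88 genes of 28198 genes and 19316 mRNAs in the table, and 2 readthrough rows with hyphenated names were left out. No measured value entered the rule.

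As the study describes, the cells had been depleted of METTL3, infected with lentiviruses and reconstituted. They carried either wild-type METTL3, labelled WT-METTL3, or a mutant, labelled K177Q-METTL3. In the mutant, glutamine stands in for a lysine and mimics its acetylated form. METTL3 is the catalytic subunit of the complex that writes N6-methyladenosine on mRNA, and a cytosolic role in translation has been described for it. All cells received cycloheximide at 100 µg/mL for 5 min, and lysates were separated on 10 to 50% sucrose gradients and pooled into a sub-polysome and a polysome fraction, whose poly(A) RNA was sequenced. The values below come from 4 libraries, 1 for each combination of cells and fraction, all labelled replicate 2. With 1 library per condition used here, no replicate error could be computed and no test was made, so every difference below is a difference between libraries.

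The 5 complexes sit in the mitochondrial inner membrane. Complexes I to IV pass electrons from NADH and succinate to oxygen, complexes I, III and IV pump protons, and ATP synthase (complex V) uses the proton gradient to make ATP. The genes studied here are transcribed in the nucleus and translated by cytosolic ribosomes, many of them into small proteins that are then imported. Complexes I, III, IV and V also hold subunits made inside mitochondria, which a nuclear mRNA table does not describe. On a sucrose gradient an mRNA carrying many ribosomes sediments with the polysomes, and a short coding sequence has room for few ribosomes.

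Members were abundant. Of the 88 genes, 81 had a mean of at least 1 FPKM (fragments per kilobase of transcript, scaled to library size) over the 4 libraries and are described below, beside all 10383 mRNAs that passed the same minimum. The 7 that did not pass were COX4I2, COX6A2, COX7A1, COX8C and ATP5MGL, which were listed at 0 in every library, and COX6B2 and NDUFA4L2, whose highest values were 1.52 and 0.073 FPKM. Several of these are tissue isoforms, such as the heart and muscle forms COX6A2 and COX7A1 and the testis form COX8C. All 88 genes together took 4.02% of the summed FPKM in the WT-METTL3 sub-polysome library, 4.35% in the WT-METTL3 polysome library, 3.88% in the K177Q-METTL3 sub-polysome library and 4.05% in the K177Q-METTL3 polysome library. The share of the polysome libraries was thus above that of the sub-polysome libraries in both cell lines. The median member had 217 FPKM in the WT-METTL3 sub-polysome library, against 9.33 FPKM for the median mRNA.

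Markers of the labelled cell line were checked first. VIM, a mesenchymal marker, was at 677 to 1543 FPKM, the hormone receptor genes ESR1 and PGR were at or below 0.012 FPKM, and the epithelial cadherin CDH1 was at 0.22 to 0.63 FPKM. METTL3 stood at 9.39 and 38.7 FPKM in the sub-polysome and polysome libraries of WT-METTL3 cells and at 5.07 and 29.5 FPKM in those of K177Q-METTL3 cells. A gene-level value of METTL3 does not tell the mutant from the wild-type form. The smallest steps of the FPKM values put each library at about 25500000 to 27500000 fragments. At that depth the counting error of a member's log2 ratio between cell lines had a median of 0.038 and was under 0.1 for 79 of the 81 members, which leaves out variation between cultures.

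The transcripts of the members are short. On the GENCODE 44 canonical transcripts (hg38), the median member had 136 codons, against 439 for all mRNAs tested, and the range ran from 51 codons in ATP5F1E to 727 in NDUFS1. The 5′ untranslated region had a median of 54 bases, against 129 for all mRNAs tested. Very short leaders of mitochondrial genes often end in an element called TISU (translation initiator of short 5′ UTR), in which the start codon lies inside a fixed motif. The motif searched was AANATGGCGGC, with its ATG at the annotated start codon, on the transcript strand only. It contains a purine 3 bases before the ATG and a G after it, as the Kozak context does, and overlaps the binding motif of the transcription factor YY1. It was found in 8 of 81 members (9.88%), against 1.95% of all mRNAs with an annotated transcript. It was also found in 13 of 78 mitochondrial ribosomal protein genes (16.7%), so it is not particular to the members.

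Of these start sites 7 are shown, because few mRNAs carry the motif. Each run of up to 24 bases is read 5′ to 3′ on the transcript and spans the end of the 5′ untranslated region and the start of the coding sequence, with the motif in capitals. The genes shown lie on hg38 at chr12:4649114-4694317 (NDUFA9, plus strand), chr11:47579074-47584562 (NDUFS3, plus), chr5:53560639-53683338 (NDUFS4, plus), chr5:1801407-1816048 (NDUFS6, plus), chr1:17018722-17054032 (SDHB, minus), chr22:29767369-29770413 (UQCR10, plus) and chr3:48599002-48609646 (UQCRC1, minus).
NDUFA9: ttgtgggaaAAGATGGCGGCtgcc
NDUFS3: catctgagtAACATGGCGGCggcg
NDUFS4: gcctgcagcAAGATGGCGGCggtg
NDUFS6: agcggcgcAAAATGGCGGCggcg
SDHB: tcaggagccAAGATGGCGGCggtg
UQCR10: ctgtgaagaAACATGGCGGCcgcg
UQCRC1: tgcagctggAAGATGGCGGCgtcc
Of those shown, all but UQCR10 and UQCRC1 had a leader of fewer than 25 bases. A match describes the letters of the annotated transcript and does not show that the site is used as such an element.

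Translation efficiency (TE) was taken as the study defines it, the polysome value divided by the sub-polysome value, here as FPKM with 0.1 added to each. In WT-METTL3 cells members had a median log2 TE of 0.35, against 0.18 for all mRNAs tested. TE was at least 1.5-fold above 1 for 38 members, with 29.4% of all mRNAs past the same limit, and at least 1.5-fold below 1 for 12 members, with 16.0% of all mRNAs. TE was below 1 for 27 members, and for 40.3% of all mRNAs. The members covered a wide range, from a TE of 0.227 for UQCRH to 4.34 for ATP5F1A. In K177Q-METTL3 cells the members' median log2 TE was -0.02 and that of all mRNAs was 0.21. In these cells 25 members were at least 1.5-fold above 1 (31.5% of all mRNAs) and 22 at least 1.5-fold below (18.1% of all mRNAs). TE was below 1 for 41 members in these cells, and again for 40.3% of all mRNAs. The members were thus above the median mRNA in the WT-METTL3 libraries and below it in the K177Q-METTL3 libraries.

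Between the cell lines, 80 of 81 members had a lower TE in K177Q-METTL3 cells, where 50.1% of all mRNAs did. The median log2 TE ratio (K177Q-METTL3 over WT-METTL3) was -0.37 for members and -0.00 for all mRNAs tested. The ratio was at least 1.5-fold lower for 14 members, with 5.59% of all mRNAs past that limit, and at least 1.5-fold higher for 0 members, with 3.73% of all mRNAs. The 14 members were ATP5F1E, NDUFC2, NDUFA4, UQCRHL, COX5A, NDUFB3, UQCRQ, NDUFA3, UQCRH, NDUFB6, COX7C, UQCR11, ATP5PF and ATP5MPL. They come from complexes I, III, IV and V, and none is a subunit of complex II. NDUFA5 was the single member with a positive value, at 0.21, and its mean was below 10 FPKM.

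The direction and size depended on how the libraries were scaled, since FPKM are shares of a library and the amount of RNA per cell in each fraction is not in these values. The FPKM values summed to 899550 and 818984 in the sub-polysome and polysome libraries of WT-METTL3 cells, and to 1037594 and 767949 in those of K177Q-METTL3 cells. When each library was brought to the same total (TPM), the log2 TE ratio moved up by 0.30, and by less for genes near the added 0.1 FPKM. The members' median was then -0.07 and that of all mRNAs 0.29, 51 of 81 members were below 0, with 19.6% of all mRNAs, and 0 were at least 1.5-fold lower, with 1.61% of all mRNAs. At least 1.5-fold higher were 0 members and 18.2% of all mRNAs. The medians by complex on the TPM scale were -0.07 for complex I, 0.04 for complex II, -0.23 for complex III, -0.12 for complex IV and -0.01 for complex V, so the sign for complex II turned. Because the scaling shifts members and other mRNAs nearly alike, it could hardly change the members' place among them. On the FPKM scale 80 of 81 lay below the median of all mRNAs, and 79 of 81 did on the TPM scale. The values below are on the FPKM scale unless TPM is named.

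Complex I, the NADH dehydrogenase, supplied 37 of the 81 members, with a median log2 TE ratio of -0.37, and 4 were at least 1.5-fold lower. Its 7 nuclear-encoded core subunits, which hold the flavin and the iron-sulfur clusters or bind ubiquinone, had a median log2 TE of 1.14 in WT-METTL3 cells and a median log2 TE ratio of -0.13, which was 0.17 on the TPM scale. The 30 accessory subunits, which surround the core and serve its assembly and stability, had medians of 0.24 and -0.38, the latter -0.08 on the TPM scale. Core subunits thus had the higher TE in WT-METTL3 cells and the higher TE ratio, while which of the groups lay nearer to 0 depended on the scale. Core subunits were also longer, with a median of 264 codons against 133 for accessory ones, and length was not separated from this contrast.

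Among core subunits, NDUFS1, the largest iron-sulfur subunit, was at 6.30 and 20.3 FPKM (sub-polysome, polysome) in WT-METTL3 cells and at 6.12 and 19.3 FPKM in K177Q-METTL3 cells. NDUFV1, which binds FMN and NADH, was at 102 and 225 FPKM against 106 and 220 FPKM. NDUFV2, its iron-sulfur partner, was at 280 and 444 FPKM against 280 and 425 FPKM. These 3 had log2 TE ratios of -0.03, -0.08 and -0.06, so their fractions were nearly alike in both cell lines. NDUFS3 was at -0.20. NDUFS7 and NDUFS8, which carry the iron-sulfur clusters nearest to the quinone, were lower, at -0.41 and -0.37.

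The accessory subunits NDUFC2, NDUFB3, NDUFA3 and NDUFB6 were the 4 members of complex I past 1.5-fold. NDUFC2 (chr11:78068297-78079862, minus strand, 3 exons) had 38.1 FPKM in the WT-METTL3 sub-polysome library, 152 FPKM in its polysome library, 52.7 FPKM in the K177Q-METTL3 sub-polysome library and 124 FPKM in its polysome library. Its TE went from 3.98, the highest of complex I among members with a mean of at least 10 FPKM, to 2.36, a log2 ratio of -0.76. Reads of this gene can be shared with a readthrough row that also contains KCTD14, and with both rows summed the log2 TE ratio was -0.70.

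NDUFB3, a small membrane-arm subunit, had 171 and 212 FPKM in the sub-polysome and polysome libraries of WT-METTL3 cells. In K177Q-METTL3 cells it had 224 and 176 FPKM, so the larger value changed from the polysome to the sub-polysome library and the log2 TE ratio was -0.67. NDUFA3 had 139 and 105 FPKM against 176 and 85.2 FPKM, a log2 TE ratio of -0.64. The mRNA with the lowest TE of complex I in WT-METTL3 cells was NDUFC1, at 272 and 116 FPKM, and its log2 TE ratio was -0.39. The abundant accessory mRNAs NDUFS5 and NDUFA13 lay higher in the polysome libraries, NDUFS5 at 1157 and 1709 FPKM against 1319 and 1431 FPKM and NDUFA13 at 1016 and 1592 FPKM against 1072 and 1425 FPKM. NDUFA10, at 6.38 and 18.9 FPKM against 6.87 and 19.0 FPKM, had a log2 TE ratio of -0.10.

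Complex II, succinate dehydrogenase, is the one complex encoded wholly in the nucleus, and all 4 of its genes passed the minimum. The catalytic flavoprotein SDHA (chr5:218320-257082, plus strand, 15 exons) had 30.0 and 109 FPKM in the sub-polysome and polysome libraries of WT-METTL3 cells and 32.3 and 109 FPKM in those of K177Q-METTL3 cells. The iron-sulfur subunit SDHB had 53.9 and 141 FPKM against 62.8 and 128 FPKM. On the FPKM scale SDHA thus had the same polysome value, while SDHB was lower in the polysome and higher in the sub-polysome library of K177Q-METTL3 cells. The membrane anchors were SDHC, at 46.0 and 105 FPKM against 58.0 and 105 FPKM, and SDHD, at 133 and 136 FPKM against 151 and 135 FPKM. The log2 TE ratios were -0.10 for SDHA, -0.36 for SDHB, -0.32 for SDHC and -0.20 for SDHD, and none was 1.5-fold lower. For both anchors the difference lay in the sub-polysome library on the FPKM scale. With TPM the log2 differences shift by -0.21 in the sub-polysome and 0.09 in the polysome libraries, so the fraction that differs depends on the scale. The complex had the highest median log2 TE in WT-METTL3 cells, 1.28, of the 5 complexes. It also had the longest median coding sequence, 224.5 codons. The medians were 145, 91, 83 and 138.5 codons for complexes I, III, IV and V, and length was not separated from this ranking.

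Complex III, the cytochrome bc1 complex, had 9 members by the name rule, and 4 of them were at least 1.5-fold lower. Its median log2 TE in WT-METTL3 cells (-0.35) and its median log2 TE ratio (-0.53) were the lowest of the 5 complexes. The rule counts the intronless copy UQCRHL and leaves out CYC1, the cytochrome c1 gene, with a log2 TE of 1.07 in WT-METTL3 cells and a log2 TE ratio of -0.12. Both rankings depend on that choice, and coding length was not separated from them. UQCRH, the acidic hinge subunit that contacts cytochrome c1 (chr1:46303698-46316776, plus strand, 4 exons), had 1552 and 352 FPKM in the sub-polysome and polysome libraries of WT-METTL3 cells and 1717 and 252 FPKM in those of K177Q-METTL3 cells. Its TE of 0.227 and 0.147 was the lowest of all members in both cell lines, and its log2 TE ratio was -0.63.

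UQCRHL is an intronless copy of UQCRH (chr1:15807374-15807649, minus strand) listed at 9.39, 2.96, 6.49 and 1.22 FPKM in the WT-METTL3 sub-polysome and polysome and the K177Q-METTL3 sub-polysome and polysome libraries. Its reads may be shared with UQCRH, its log2 TE ratio of -0.68 had a counting error of 0.63, and the sum of both genes gave -0.63. The small accessory subunit UQCRQ had 302 and 237 FPKM against 350 and 173 FPKM, a log2 TE ratio of -0.66. Its log2 polysome difference was -0.45 and its log2 sub-polysome difference 0.21.

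The large subunits of complex III differed less. UQCRC2, a core protein, had 20.3 and 56.9 FPKM against 22.0 and 55.1 FPKM and a log2 TE ratio of -0.16. The Rieske iron-sulfur protein UQCRFS1 was at -0.19 and UQCRC1 at -0.32, while the small subunits UQCR11, UQCRB and UQCR10 were at -0.61, -0.53 and -0.37.

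Complex IV, cytochrome c oxidase, had 13 of 19 genes past the minimum. The catalytic core of this complex is encoded by mitochondria, and the genes here encode subunits around it and 1 supercomplex factor. The median log2 TE ratio was -0.42 and 3 members were at least 1.5-fold lower. NDUFA4, counted here because its protein is now placed in this complex, lies at chr7:10931943-10940153 on the minus strand. It had 62.3 and 131 FPKM in the sub-polysome and polysome libraries of WT-METTL3 cells and 82.9 and 106 FPKM in those of K177Q-METTL3 cells, and its log2 TE ratio was -0.72. COX5A had 118 and 193 FPKM against 165 and 169 FPKM, a log2 TE ratio of -0.67, of which 0.49 was its log2 sub-polysome difference and -0.19 its log2 polysome difference. In NDUFA4 and COX5A the mRNA was thus lower in the polysome and higher in the sub-polysome library of K177Q-METTL3 cells.

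COX8A, COX6A1 and ATP5ME of complex V were 3 of the 5 most abundant members, the others being NDUFS5 and NDUFA13. COX8A had 3125 and 1946 FPKM in WT-METTL3 cells and 3317 and 1687 FPKM in K177Q-METTL3 cells, and COX6A1 had 2276 and 1912 FPKM against 3022 and 1835 FPKM. Their log2 TE ratios were -0.29 and -0.47. COX7B and COX7B2 both passed the minimum. For other complex IV subunits encoded by several genes, a single form was measured at a high level. These were COX4I1 with COX4I2 listed at 0, COX6A1 with COX6A2 listed at 0 and COX6B1 with COX6B2 at no more than 1.52 FPKM. They also included COX8A with COX8C listed at 0, and COX7A2 with COX7A1 listed at 0.

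The log2 TE ratios of these expressed forms were -0.55 for COX4I1, -0.42 for COX6B1 and -0.51 for COX7A2, while COX6C, which has no second form in the list, was at -0.24. COX7A2L, a supercomplex factor, had 181 and 93.4 FPKM against 181 and 82.3 FPKM, a log2 TE ratio of -0.18. It had the lowest TE of complex IV in WT-METTL3 cells, 0.516. COX7B was at -0.40, and its paralogue COX7B2, at 11.2 to 18.7 FPKM, was at -0.29 with a counting error of 0.19.

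ATP synthase had 18 of 19 genes past the minimum, a median log2 TE ratio of -0.31 and 3 members at least 1.5-fold lower. Its F1 head held the member with the lowest log2 TE ratio and the member with the highest TE in WT-METTL3 cells. ATP5F1E, the epsilon subunit and with 51 codons the shortest member, lies at chr20:59025475-59032335 on the minus strand. It had 81.4 and 52.4 FPKM in the sub-polysome and polysome libraries of WT-METTL3 cells and 93.6 and 35.4 FPKM in those of K177Q-METTL3 cells. Its log2 TE ratio of -0.77 was the lowest of the 81 members, a TE 1.70-fold lower.

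The catalytic beta subunit ATP5F1B had 174 and 582 FPKM against 195 and 573 FPKM, a log2 TE ratio of -0.18. The alpha subunit ATP5F1A (chr18:46080248-46098296, minus strand, 12 exons) had 86.9 and 377 FPKM against 106 and 352 FPKM, a log2 TE ratio of -0.39. It had the highest TE of all members in WT-METTL3 cells, 4.34, and 3.31 in K177Q-METTL3 cells. The gamma subunit ATP5F1C was at -0.23 and the delta subunit ATP5F1D at -0.31. The alpha, beta and gamma mRNAs thus stayed well above a TE of 1 in both cell lines, and epsilon stayed below it. Delta crossed it on the FPKM scale, from a TE of 1.06 in WT-METTL3 to 0.86 in K177Q-METTL3 cells.

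The c subunit of the rotor ring is encoded by a small gene family, in which ATP5MC1, ATP5MC2 and ATP5MC3 encode the same mature protein. ATP5MC1 had 399 and 671 FPKM against 408 and 552 FPKM, ATP5MC2 had 427 and 544 FPKM against 532 and 525 FPKM, and ATP5MC3 had 54.8 and 139 FPKM against 67.3 and 130 FPKM. Their log2 TE ratios were close, at -0.32, -0.37 and -0.39. They split between the fractions in different ways, with a log2 polysome difference of -0.28 for ATP5MC1 and a log2 sub-polysome difference of 0.32 for ATP5MC2 and 0.30 for ATP5MC3.

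Of the remaining subunits, ATP5PB, a peripheral stalk subunit, had 30.0 and 97.9 FPKM against 27.5 and 89.6 FPKM, and both fractions moved alike, for a log2 TE ratio of -0.00. ATP5PF, another stalk subunit, was at -0.59. The membrane subunit ATP5ME had 2219 and 697 FPKM against 2173 and 575 FPKM, the lowest TE of complex V in WT-METTL3 cells at 0.314, and a log2 TE ratio of -0.25. ATP5MD was at -0.13, and ATP5MPL at -0.59 lay just past the 1.5-fold limit.

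On the FPKM scale members were lower in the polysome and higher in the sub-polysome library of K177Q-METTL3 cells. Polysome FPKM was lower in K177Q-METTL3 than in WT-METTL3 cells for 74 members, against 53.0% of all mRNAs, and the median log2 difference was -0.18, against -0.02 for all mRNAs. A single member, UQCRHL, was at least 1.5-fold lower in polysomes, with 2.02% of all mRNAs past the limit, and 0 were as much higher, with 1.81% of all mRNAs. Sub-polysome FPKM was lower for 9 members, against 51.0% of all mRNAs, and the median log2 difference was 0.17, against -0.01 for all mRNAs. None was 1.5-fold higher or lower in sub-polysomes, with 3.48% and 2.70% of all mRNAs past those limits. The 2 directions occurred together, lower in polysomes and higher in sub-polysomes, in 65 of 81 members and in 23.1% of all mRNAs. On the TPM scale the members' median sub-polysome difference was -0.04 and the polysome difference -0.09, so the direction of the sub-polysome difference depended on the scale.

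**Figure D1:**
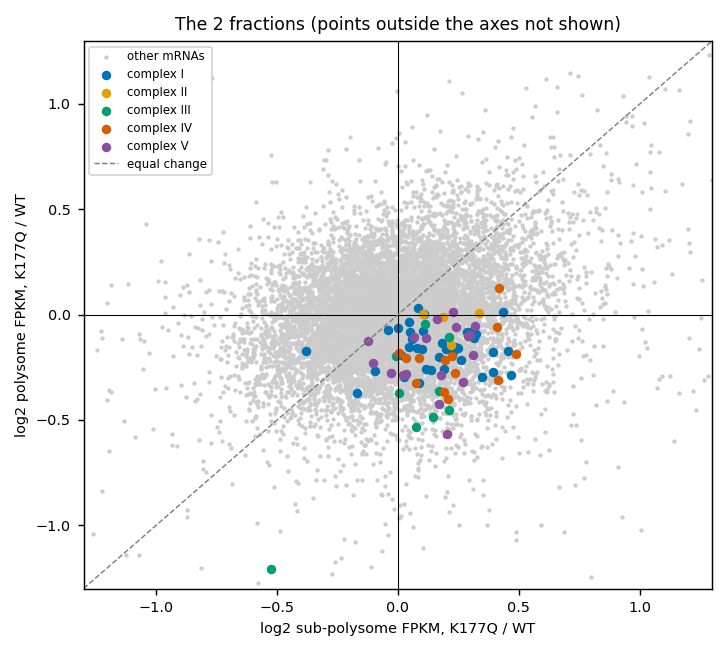
Log2 difference between K177Q-METTL3 and WT-METTL3 cells in the sub-polysome (x) and polysome (y) libraries, FPKM scale. Grey points are other mRNAs, coloured points members by complex and the dashed line marks equal change in both fractions. Members gather in the lower right, where 65 of 81 lie, and UQCRHL stands apart at the lower left.

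TE of members went with their coding length. Across the 81 members the Spearman correlation of codon number with log2 TE was 0.76 in WT-METTL3 cells and 0.80 in K177Q-METTL3 cells, and with the log2 TE ratio it was 0.51. For 10280 other mRNAs the same correlations were 0.23, 0.39 and 0.46. These describe genes that share the same 4 libraries and carry no test. The length of the 5′ untranslated region showed little relation among members, at -0.10 with log2 TE in WT-METTL3 cells and -0.09 with the log2 TE ratio.

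Other mRNAs were read in bands of coding length. Up to 100 codons, 226 other mRNAs had a median log2 TE ratio of -0.31 and 24 members -0.41. From 101 to 150 codons the medians were -0.30 for 537 other mRNAs and -0.42 for 24 members. From 151 to 200 codons they were -0.22 and -0.31, from 201 to 300 codons -0.14 and -0.21, and above 300 codons 0.08 and -0.13. Members were lower in each of the 5 length bands, and other mRNAs were also below 0 in the 4 shorter bands but not in the longest. On the TPM scale the medians were -0.01 for other mRNAs and -0.11 for members up to 100 codons, and -0.01 and -0.12 from 101 to 150 codons. When each member was set against the median of other mRNAs in its band, the members' median log2 TE ratio was -0.12 and 64 of 81 were below their band.

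The same bands were also read among abundant mRNAs. Among mRNAs above 100 FPKM the medians in the same 5 bands, from short to long, were -0.39, -0.38, -0.33, -0.28 and -0.12 for other mRNAs and -0.40, -0.42, -0.31, -0.22 and -0.25 for members. Cytosolic ribosomal protein genes are among these other mRNAs, and without them the medians were -0.37, -0.33, -0.30, -0.26 and -0.11. The abundant members were thus lower than other abundant mRNAs in 3 bands with ribosomal protein genes counted and in 4 bands without them, and higher in the rest. Some of these gaps were very small. Up to 100 codons, with ribosomal protein genes counted, members were at -0.404 and other mRNAs at -0.392. From 151 to 200 codons, without those genes, the values were -0.307 and -0.302. In the longest band 4 such members were compared.

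Within WT-METTL3 cells, by contrast, members were more polysomal than other mRNAs of their length in every band. The median log2 TE of members and other mRNAs was -0.55 and -0.94 up to 100 codons, 0.30 and -0.35 from 101 to 150, 0.74 and -0.07 from 151 to 200, 1.0 and 0.11 from 201 to 300, and 1.68 and 0.28 above 300. Relative to its band, the median member was higher by 0.73 in WT-METTL3 cells and by 0.62 in K177Q-METTL3 cells, with 70 and 69 of 81 members above their band. Among mRNAs above 100 FPKM, members had the higher median in all 5 bands too, for instance 0.21 against -0.27 from 101 to 150 codons. The high polysome share of members for their length was therefore measured in both cell lines. Mitochondrial ribosomal protein genes, with a median of 195 codons, had median log2 TE of 0.54 in WT-METTL3 and 0.37 in K177Q-METTL3 cells. Other mRNAs of 151 to 200 codons had -0.07 and -0.29. That family was not read band by band, and the trait is not shown to be particular to the members.

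The 8 members with the start codon motif had a median log2 TE of 1.08 in WT-METTL3 cells and a median log2 TE ratio of -0.29 (0.01 on the TPM scale), and 0 of them were at least 1.5-fold lower. The 73 members without the motif had medians of 0.28 and -0.39, and held all 14 members past the limit. Of other mRNAs, 1.55% with the motif and 5.57% without it were past that limit, and with 8 members a count of 0 says little. Among other mRNAs, those with the motif had a median log2 TE ratio of 0.01 and those without 0.00. Motif members range from UQCR10, with 63 codons and a log2 TE ratio of -0.37, to NDUFA9, with 377 codons and -0.05, and length was not separated from the motif. A transcript start at C followed by at least 4 pyrimidines, the form typical of ribosomal protein mRNAs, was present in 9 of 65 members with a RefSeq start (13.8%) and in 5.57% of all mRNAs with one. The log2 TE ratio had a median of -0.46 for these 9 members and -0.36 for the other 56.

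The most similar gene families were both lower on the FPKM scale, and on the TPM scale the median was -0.33 for the cytosolic and 0.05 for the mitochondrial ribosomal protein genes, so that of the latter turned. Of 85 cytosolic ribosomal protein genes, 55 were at least 1.5-fold lower in TE in K177Q-METTL3 cells, with a median log2 TE ratio of -0.63. Of 78 mitochondrial ribosomal protein genes, whose proteins also enter mitochondria, 3 (3.85%) were as much lower and the median was -0.25. Of all mRNAs, 5.59% were past that limit, so the count for the mitochondrial family was not above this share. The respiratory chain subunits stood between these families. In WT-METTL3 cells the median log2 TE was 0.54 for the mitochondrial and -0.49 for the cytosolic ribosomal protein genes, against 0.35 for the members.

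Genes that build or serve the complexes were read from a separate list. Of 50 assembly factors, 49 passed the minimum. Their median log2 TE ratio was -0.32 and 35 were below 0, where 50.1% of all mRNAs were. At least 1.5-fold lower were 6, and 0 were as much higher, where 5.59% and 3.73% of all mRNAs were. On the TPM scale the median was -0.02, with 2 of 49 lower and 5 higher, where 1.61% and 18.2% of all mRNAs were. Among those with a mean of at least 10 FPKM, TMEM186, a complex I assembly factor, was lowest at -1.09, from 5.57 and 15.2 FPKM in the sub-polysome and polysome libraries of WT-METTL3 cells to 9.81 and 12.5 FPKM in those of K177Q-METTL3 cells. PET100, needed to assemble complex IV, followed at -0.97, with 194 and 284 FPKM against 297 and 223 FPKM. COX16, another complex IV factor, was at -0.74. Each of these 3 was higher in the sub-polysome and lower in the polysome library of K177Q-METTL3 cells. The highest were ATPAF1 at 0.38, TTC19 at 0.32 and BCS1L at 0.21, which serve complexes V, III and III.

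The mobile carrier cytochrome c and its docking partner in complex III were read beside the members. CYC1, the cytochrome c1 gene, had 330 and 691 FPKM against 346 and 666 FPKM, a log2 TE ratio of -0.12 (0.18 on the TPM scale). CYCS had 34.9 and 42.0 FPKM against 27.2 and 32.8 FPKM and a log2 TE ratio of 0.00 (0.30 on the TPM scale), with both fractions lower by a like amount on the FPKM scale. Of 13 transcriptional and RNA-binding regulators of these genes, 11 passed the minimum, with a median log2 TE ratio of 0.17. GABPA, a subunit of the factor also called NRF-2, was at 0.66 and LARP1, which binds mRNAs with a pyrimidine start, at 0.59. Both were past 1.5-fold higher, as were 3.73% of all mRNAs, and were named after their values were seen. GABPA had a mean of 2.87 FPKM and a counting error of 0.15, so its place past the limit is uncertain. Below 0 were 4 of 11: ESRRA at -0.50, NRF1 at -0.34, TFB1M at -0.25 and GABPB1 at -0.09. At least 1.5-fold lower were 0 regulators, with 5.59% of all mRNAs. On the TPM scale 4 of 11 were past 1.5-fold higher, with 18.2% of all mRNAs.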

How the data were processed

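Poly(A) RNA of pooled sub-polysome and polysome fractions was sequenced from directional libraries. Per the labels and the study's methods, the authors treated cells with cycloheximide before lysis, and the submitters' processing notes name STAR 2.7, StringTie 2.1.5 and the build hg38, without the options used. The deposited values are FPKM per gene, which the authors computed before deposit. They carry no fragment counts. Of the table's per-sample columns, 4 are named for replicate 1, matched no sample in the labels used here and were not used. The lack of replicate error is therefore a limit of the libraries used here.

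From these values, log2 TE was computed as log2((polysome FPKM + 0.1)/(sub-polysome FPKM + 0.1)), and the TE ratio as K177Q-METTL3 minus WT-METTL3. Genes of class mRNA entered when their mean across the libraries reached 1 FPKM. The limit of 1.5-fold was applied in place of a test, because each condition had 1 library. The scripts (Python 3.11.15, pandas 2.3.3, numpy 2.4.6, scipy 1.17.1) were tested on simulated data. Whole fragments were approximated from the lowest cluster of FPKM times transcript length, in a window chosen after viewing the values, and used only for counting errors. Transcript lengths and start codons came from GENCODE 44, with older symbols matched through RefSeq synonyms, and transcript starts from RefSeq promoters. Ribosomal protein genes were RPL, RPS, MRPL and MRPS names, and kinases named RPS6K and RPS19BP1 were removed after the list had been drawn up, since they are not ribosomal proteins.

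Named members were those of complex II, the core of complex I, F1, the groups of paralogues, the 5 most abundant, the 8 lowest and 8 highest TE ratios and the extremes of TE in WT-METTL3 cells per complex, the last 2 among means of at least 10 FPKM. Members past 1.5-fold, those with the start codon motif and a few further subunits were named after their values were seen. The values of 1 member are not reported here by name. Members and lists were chosen with earlier results of these data known. The alternatives were other pseudocounts, minimums, scalings, a 2-fold limit and narrower member lists, and, after seeing the data, length-band centring and leaving out members that share sequence.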

Additional observations from a re-analysis of the deposited data

Results flagged for a closer look

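In 8 members TE was above 1 in WT-METTL3 cells and below 1 in K177Q-METTL3 cells, by at least 0.1 on the log2 scale on each side, so the polysome and sub-polysome libraries changed order. The same was so for 2.91% of all mRNAs. The log2 TE in WT-METTL3 and K177Q-METTL3 cells was 0.31 and -0.35 for NDUFB3, 0.15 and -0.26 for NDUFA11, 0.16 and -0.23 for NDUFB11 and 0.18 and -0.15 for NDUFS6, all accessory subunits of complex I. It was 0.25 and -0.16 for COX5B and 0.28 and -0.12 for COX7B of complex IV. It was 0.15 and -0.32 for ATP5MG, a membrane subunit of ATP synthase, and 0.11 and -0.39 for ATP5IF1, its inhibitory factor. With 1 library per condition the difference was not tested. Without the margin of 0.1, 14 members crossed in this direction and 0 in the other, where 6.31% and 6.26% of all mRNAs did, and on the TPM scale 0 of these 14 had a TE below 1 in K177Q-METTL3 cells.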

How the results depend on the processing

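The members' median log2 TE in WT-METTL3 cells was 0.26 to 0.49 under the other pseudocounts, minimums and scalings, 0.17 after centring on all mRNAs, and 0.73 relative to other mRNAs of the same coding length. The median in K177Q-METTL3 cells lay near 0 and changed sign with a minimum of 10 FPKM (0.0246), TPM (0.415), totals made equal without ribosomal protein genes (0.195) and relative to length bands (0.62). The median log2 TE ratio stayed below 0 in every alternative run, and was -0.0701 with TPM, -0.132 without ribosomal protein genes in the totals and -0.12 relative to length bands. The count of members at least 1.5-fold lower was 13 to 16 with the other pseudocounts, minimums, size factors and centring, but 0 with TPM, 0 without ribosomal protein genes in the totals and 0 at a 2-fold limit. The median log2 polysome difference was -0.0865 with TPM and -0.143 without ribosomal protein genes in the totals, and the median log2 sub-polysome difference turned to -0.0356 and -0.0299. Both scalings shift all genes alike. Of 264 values of named members under alternatives, 175 moved by less than 0.1 on the log2 scale and 89 moved by more. Nearly all of the larger moves came from these scalings, which raised the log2 TE ratio by about 0.30 with TPM and 0.24 without ribosomal protein genes. Shifts of that size cannot change the sign of a ratio past 1.5-fold. Smaller ratios did change sign with TPM, such as ATP5F1B from -0.18 to 0.12 and SDHA from -0.10 to 0.19. On the TPM scale 25 of 44 named members kept a log2 TE ratio below 0. No paired analysis was possible because each condition had 1 library and all carry replicate number 2. Counting error, not variation between cultures, is the only error known here.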
